A study of Mus musculus with 39 samples.

Results

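The comparison described here set morulae against 8-cell mouse embryos, the step of preimplantation development at which the blastomeres compact. The rule took the 3 untreated morula arrays and the 3 untreated 8-cell arrays, 6 of the 39 arrays of the series, and compared them across all genes. The series asked how inhibitors of histone deacetylases act on early embryos, and these 6 arrays belong to its untreated developmental series. The embryos were of the cross B6D2F1 x ICR, made by in vitro fertilization with oocytes of females aged 8 to 9 weeks and sperm of males aged 15 to 20 weeks, and no transgene, mutation or inhibitor is named for them. Each array held RNA pooled from 100 embryos, so that cells of one embryo could not be told apart. The hours of collection and whether the 8-cell embryos were already compacted are not given in the sources used here. Fewer cells of a type and less RNA per cell cannot be told apart in such pools, and all signals are relative to the other genes of an array.

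During compaction the blastomeres flatten against each other through E-cadherin and its catenins, and tight junctions and desmosomes then seal the outer cells into an epithelium. The outer cells acquire an apical domain with ezrin and the Par complex, which holds the Hippo kinases off, so that YAP1 and TEAD4 turn on the trophectoderm genes Cdx2 and Gata3. Inner cells keep Hippo signalling active and go on to the inner cell mass, which later separates into epiblast and primitive endoderm. Embryos of this time also shift from pyruvate towards glucose as a fuel, and the last transcripts left from the oocyte disappear.

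Signals were normalized with the smooth quantile method and fitted with limma together with the untreated 4-cell and blastocyst arrays. A differentially expressed gene (DEG) had a log2 fold change (LFC), morula minus 8-cell, of at least 1 in size and a Benjamini-Hochberg adjusted p below 0.05. Of 17558 genes tested, 4912 were DEGs with higher signals in morulae, 28% of all, and 1130 were DEGs with lower signals, 6.44%. The smooth quantile method left the median gene at an LFC of 0.46. Scaling to the 75th percentile put it at -0.27 and quantile normalization at -0.04. The split between the directions moved with it, from 4912 higher and 1130 lower to 2235 and 2850 with the 75th percentile and to 2480 and 2344 with quantile normalization. A gene is therefore said here to have risen or fallen only where it was a DEG in the same direction under all 3 scalings, a rule chosen after seeing the data. This held for 2192 genes that rose, 12.5% of those tested, and for 1130 that fell, 6.44%. All DEGs with lower signals passed the rule, since the smooth quantile values are the ones that lie highest in morulae. No gene turned from a DEG in one direction to a DEG in the other between the scalings. Counts for the lists below are to be read against the shares of all genes. These were 28% for DEGs with higher and 6.44% for DEGs with lower signals, 12.5% for genes that rose and 6.44% for genes that fell.

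**Figure D1:**
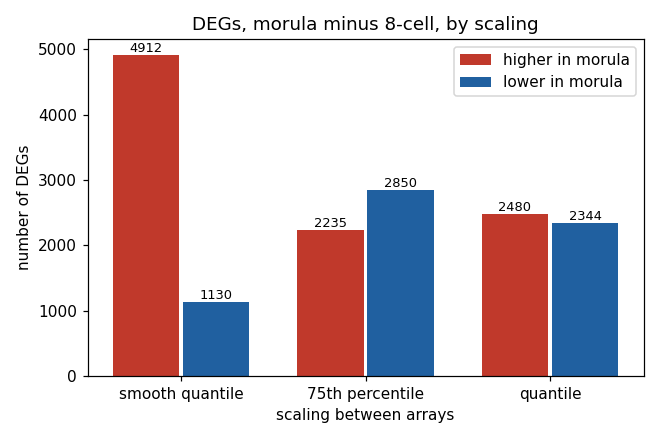
Numbers of DEGs between morulae and 8-cell embryos (vertical axis) with higher (red) and lower (blue) signals in morulae, under each of the 3 scalings between arrays (horizontal axis). The smooth quantile method gave 4912 higher and 1130 lower genes, and quantile normalization 2480 and 2344.

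The arrays of one stage resembled each other more than those of the other stage. Across genes, which are not independent replicates, the mean correlation was 0.983 among the 8-cell arrays, 0.986 among the morula arrays and 0.939 between the stages. In the same fit, the step from 4-cell to 8-cell embryos gave 1378 DEGs with higher (7.85% of the genes tested) and 952 with lower signals (5.42%), and the step from morula to blastocyst 3111 (17.7%) and 1368 (7.79%). Genes not detected in both 8-cell embryos and morulae are missing from these counts, which were made with smooth quantile values only. The sizes of the steps are therefore not compared by them. The mean correlation was 0.97 between 4-cell and 8-cell arrays and 0.943 between morula and blastocyst arrays. The replicate number is also the slide number, and each slide held 1 array of each stage. The difference had the same sign on all 3 slides for 6010 of the 6042 DEGs. Because the DEGs were called from these same arrays, this was nearly fixed in advance and is no separate support. Over all genes tested, the arrays of the stages did not overlap for 49.9% with higher and 13.2% with lower signals in morulae, so that a lack of overlap alone is common. Between 62.4 and 69.3% of the signals on the 6 arrays were positive and significant, between 44.4 and 50.5% were well above background, and 0 spots were saturated. The embryonic markers Pou5f1, Cdh1, Tfap2c and Zfp42 were well above background on all 6 arrays. Nanog, the remaining marker chosen, was so on 2 of 3 8-cell arrays and on all 3 morula arrays. Of 18 cumulus cell markers, the somatic cells that surround the oocyte, 9 could be tested and the other 9, Amh, Fshr, Cyp11a1, Cyp19a1, Inha, Inhba, Ptgs2, Ptx3 and Tnfaip6, were well above background on none of the 6 arrays. Of the 9 tested, Amhr2, Foxl2, Hsd17b1, Inhbb, Kctd14 and Vcan were well above background on all 6 arrays, and Has2, Slc38a3 and Star on none. Hsd17b1 rose (LFC 2.96, or 1.77 with the normexp background correction), and Amhr2 (-1.05) and Inhbb (-1.30) fell. Amhr2 and Inhbb each lost the call under 1 alternative setting, with LFCs of -0.98 and -0.92.

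**Figure D2:**
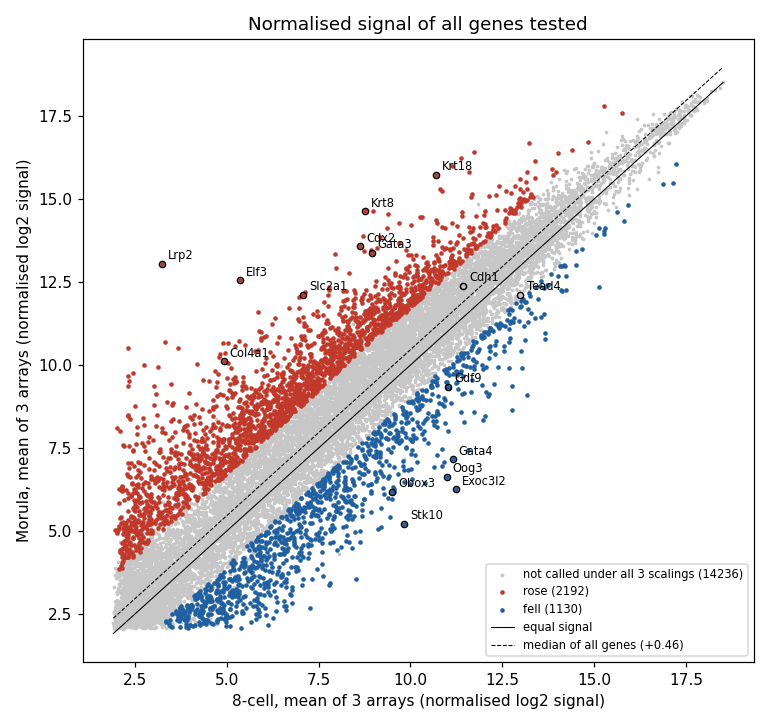
Mean normalized log2 signal of each of the 17558 genes in 8-cell embryos (horizontal axis, 3 arrays) and in morulae (vertical axis, 3 arrays). Red points mark the 2192 genes that rose and blue points the 1130 that fell under all 3 scalings, the solid line marks equal signals and the dashed line the median of all genes, 0.46 above it. Lrp2, Elf3 and Krt8 lie far above the lines, and Exoc3l2, Stk10 and Gata4 far below.

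Upstream sequences of 4 genes are shown because the keratin pair Krt8 and Krt18 and the trophectoderm factors Cdx2 and Gata3 were among the clearest rises described below. They are the 250 bases before the RefSeq start (build GRCm38.p6), 5′ to 3′ on the strand of the gene. Capitals mark matches, on either strand, to GCCNNNGGC (the TFAP2 motif), GGGCGG (the GC box), CCAAT (the CCAAT box), CCGGAA (the ETS core), GGAATG (the TEAD motif) or TATAAA (the TATA box). TFAP2 and GC box matches may overlap.
Krt8, chr15:102004343-102004592, minus strand: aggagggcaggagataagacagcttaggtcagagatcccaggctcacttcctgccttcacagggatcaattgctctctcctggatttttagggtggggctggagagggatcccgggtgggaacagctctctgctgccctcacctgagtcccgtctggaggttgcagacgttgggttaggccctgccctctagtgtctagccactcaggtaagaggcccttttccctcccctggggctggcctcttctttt
Krt18, chr15:102027966-102028215, plus strand: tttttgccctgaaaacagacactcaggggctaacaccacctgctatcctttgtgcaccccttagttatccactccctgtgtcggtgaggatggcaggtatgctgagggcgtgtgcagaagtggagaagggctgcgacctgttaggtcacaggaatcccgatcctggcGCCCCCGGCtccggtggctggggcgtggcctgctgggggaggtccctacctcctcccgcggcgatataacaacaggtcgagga
Cdx2, chr5:147307250-147307499, minus strand: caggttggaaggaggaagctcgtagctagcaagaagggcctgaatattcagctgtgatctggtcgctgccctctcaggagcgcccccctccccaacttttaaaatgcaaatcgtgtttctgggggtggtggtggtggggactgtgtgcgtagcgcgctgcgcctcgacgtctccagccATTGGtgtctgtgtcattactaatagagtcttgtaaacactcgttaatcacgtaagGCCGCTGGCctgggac
Gata3, chr2:9878601-9878850, minus strand: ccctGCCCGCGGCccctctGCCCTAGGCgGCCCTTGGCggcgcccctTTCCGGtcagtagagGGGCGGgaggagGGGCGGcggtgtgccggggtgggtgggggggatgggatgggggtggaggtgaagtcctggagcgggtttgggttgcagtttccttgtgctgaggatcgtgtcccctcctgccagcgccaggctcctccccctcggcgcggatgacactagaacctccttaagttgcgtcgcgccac

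The windows of Krt18, Cdx2 and Gata3 hold the TFAP2 letters 1, 1 and 3 times, and that of Krt8 holds none of the 6 motifs. Of the genes tested, 13776 had an upstream sequence. The TFAP2 letters were in 22.2% of the 1725 upstream sequences of genes that rose, in 17.4% of the 853 of genes that fell, in 18.1% of all genes tested and in 13.6% of all 27025 sequences of the table. The GC box was in 60.2% for genes that rose, 39.3% for genes that fell and 50.2% for all tested. It was in 32.9% of the whole table. The TEAD letters were in 11.4%, 12.8% and 11.4% in the same order, and in 12.6% of the whole table. The other motifs did not all lean the same way. TATAAA was in 6.03% for genes that rose, 12.3% for genes that fell and 9.36% for all tested (13% of the whole table), and the ETS core in 15.1%, 12% and 18.5% (12.2%). The CCAAT box was in 37.7%, 34.9% and 36.5% (34.5%), and CACGTG (the E-box), which is not marked above, in 8.35%, 5.63% and 7.57% (6.05%). A match is a description of letters and not a site, and no test was made.

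Keratins and desmosomes, the intermediate filaments of epithelia and the junctions that anchor them, had the highest median LFC of the 18 lists. Of 12 members tested, 10 were DEGs with higher signals against 28% of all genes, 9 rose under all 3 scalings and none fell. Their median LFC was 2.36, which is 1.90 above that of all genes. Krt8, a partner of Krt18 in simple epithelia, had normalized log2 signals of 8.46, 9.24 and 8.60 on the 8-cell arrays and of 14.59, 14.73 and 14.55 on the morula arrays. The stages did not overlap, and the spread within each was small beside the gap. Its LFC was 5.86 ± 0.23 (SE, n = 3 arrays per stage, adjusted p = 9.8e-08 by limma). Krt18 was at 10.73, 11.06 and 10.29 in 8-cell embryos and at 15.95, 16.05 and 15.18 in morulae, an LFC of 5.03 ± 0.30. Dsp, the plaque protein desmoplakin, went from 6.47, 6.58 and 6.08 to 10.60, 10.81 and 10.61. All 3 morula arrays again lay above all 8-cell arrays, with an LFC of 4.30 by the brighter probe and of 1.42 by the other. Pkp2, a desmosomal plaque protein, rose by an LFC of 3.75. Krt19, at 3.63, was well above background on 1 of 3 8-cell arrays.

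Adherens junction genes differed among themselves. Of 14 members, 8 were DEGs with higher signals, 5 of them under all 3 scalings, and none were lower, with a median LFC of 1.45 (1.31 with a member not well above background in 8-cell embryos at its bound). Cdh1, E-cadherin, had signals of 11.13, 11.75 and 11.42 in 8-cell embryos and of 12.36, 12.50 and 12.28 in morulae. The arrays did not overlap, but the LFC of 0.95 ± 0.22 missed the minimum and was 0.23 with the 75th percentile and 0.31 with quantile normalization. Ctnnb1, β-catenin, had an LFC of 0.99 ± 0.18, or 0.27 and 0.35 under the other scalings. Neither gene was a DEG under any of the 3 scalings. Ctnna1, α-catenin, had an LFC of 1.54, or 0.83 with the 75th percentile, and Afdn (-0.08), Nectin3 (-0.21) and Vcl (0.55) were not called. The 5 that rose were Nectin1 and Nectin2, immunoglobulin-like adhesion molecules, Epcam, an epithelial adhesion molecule, Cdh3, P-cadherin, and Plekha7, which links junctions to microtubules. Nectin1 was at 7.52, 7.28 and 7.25 in 8-cell embryos and at 11.56, 11.28 and 11.80 in morulae, an LFC of 4.20 ± 0.16 (adjusted p = 1.09e-07 by limma). Epcam was at 8.48, 7.89 and 8.13 against 11.99, 12.34 and 12.32, an LFC of 4.05 ± 0.22. Nectin2 (2.78), Plekha7 (2.69) and Cdh3 (2.15) followed.

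Tight junctions close the space between outer cells. Of 18 members tested, 11 were DEGs with higher signals, 6 rose and none were lower, with a median LFC of 1.50. The scaffold proteins of the zonula occludens differed among themselves. Tjp3 went from 8.29, 8.89 and 8.24 to 11.75, 11.70 and 11.76, an LFC of 3.26 ± 0.21. Tjp1 had signals of 11.36, 11.59 and 11.63 against 11.67, 11.76 and 11.78, an LFC of 0.21 ± 0.12 (adjusted p = 0.148 by limma), and of -0.51 and -0.41 under the other scalings. Among the claudins, the membrane strands of the junction, Cldn3 (LFC 2.95, well above background on 2 of 3 8-cell arrays and 1.58 with the normexp background correction), Cldn6 (2.39) and Cldn7 (2.14) rose. Marveld3, another membrane protein of the junction, rose by 2.25 (1.43 with that correction). Cldn4 had an LFC of 1.67 but 0.95 with the 75th percentile. Gap junctions connect the cytoplasm of neighbours. Among their members, Gja1 had an LFC of 1.20, but 0.48 with the 75th percentile.

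The apical domain is built by the Par complex on a cortex of actin and ezrin. Of 18 polarity genes tested, 7 were DEGs with higher signals and 3 rose, against 28% and 12.5% of all genes, none were lower, and the median LFC of 0.65 was 0.19 above that of all genes. The 3 were the atypical protein kinase C gene Prkci and the adaptors Pard6b and Pard6g that bind it. Prkci had signals of 10.49, 10.59 and 10.61 in 8-cell embryos and of 12.81, 12.87 and 12.94 in morulae, an LFC of 2.30 ± 0.09 (adjusted p = 1.17e-07 by limma). Pard6b was at 3.56, 4.83 and 4.06 against 7.21, 7.13 and 7.22, and only 1 of its 8-cell signals was well above background. Its LFC was 3.03 ± 0.36, or 1.36 with the normexp background correction, and that of Pard6g was 2.90 ± 0.27. Pard3, the scaffold of the complex, had an LFC of 1.69, but its 4 probes ranged from -0.34 to 4.12.

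Of the 18 lists, that of the cortex was the longest and held the most genes that rose. Of 34 members tested, 22 were DEGs with higher signals and 15 rose, against 28% and 12.5% of all genes. None were lower, and the median LFC was 1.59. Ezr, ezrin, which ties actin to the apical membrane, had signals of 6.00, 6.21 and 5.58 in 8-cell embryos and of 10.78, 11.06 and 11.11 in morulae. Its arrays lay wide apart, with an LFC of 5.05 ± 0.19 (adjusted p = 8.99e-08 by limma). The ezrin relative Msn rose by 2.35 and the ezrin-binding scaffold Slc9a3r1 by 2.69, while the third relative, Rdx, had an LFC of -0.07. Actb, β-actin, went from 15.21, 15.51 and 15.08 to 17.79, 17.84 and 17.79, an LFC of 2.54 ± 0.14. It is often taken as a reference gene, and here it lay 2.08 above the median gene. The nonmuscle myosin heavy chains Myh14 (3.40), Myh10 (2.23) and Myh9 (2.03) rose, though second probes gave 1.47 for Myh14 and 0.78 for Myh9, and Rhoc (2.93) and Rhob (2.04) rose. Rhoa had an LFC of 0.24, but -0.47 and -0.28 under the other scalings, and Rock1 of -0.04.

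**Figure D3:**
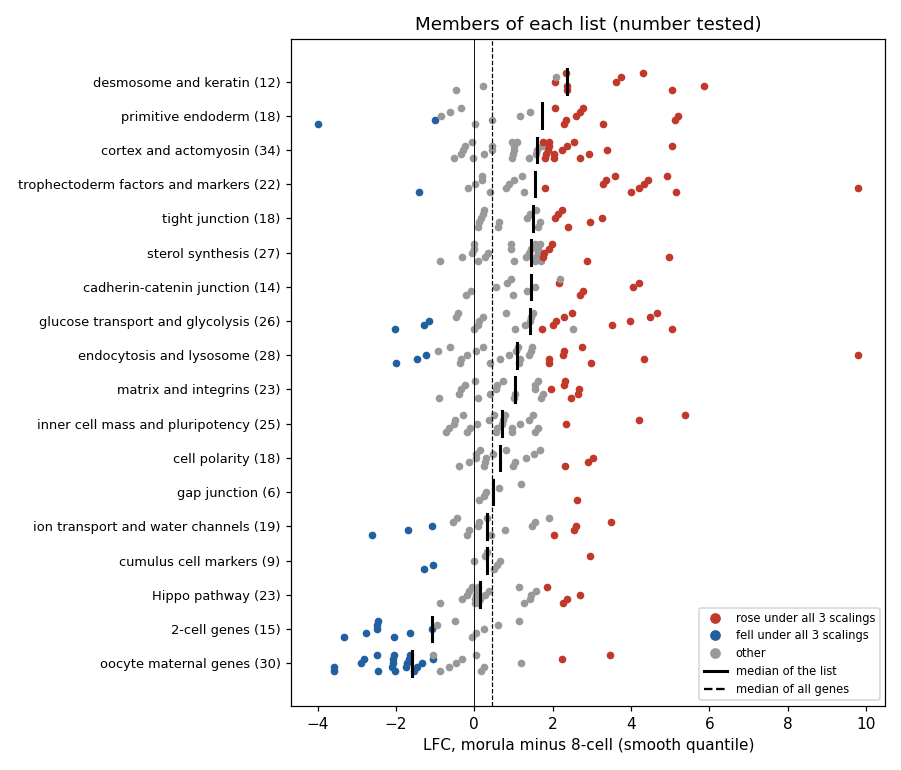
LFC of each tested member of the 18 gene lists (points, horizontal axis, morula minus 8-cell, smooth quantile values), with the number tested after each name and the lists in order of their medians (thick bars). Members not well above background in one stage are plotted at their fitted LFC. The keratin and desmosome list has the highest median, 2.36, the maternal list the lowest, -1.60, and the dashed line marks the median of all genes, 0.46.

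The Hippo list lay below the median of all genes, though single members rose. Of 23 members tested, 9 were DEGs with higher signals and 4 rose, against 28% and 12.5% of all genes, and none fell, with a median LFC of 0.14, which is 0.32 under that of all genes. Yap1, the co-activator, was at 12.72, 12.77 and 12.81 in 8-cell embryos and at 12.89, 13.05 and 13.17 in morulae, an LFC of 0.28 ± 0.12 (adjusted p = 0.0789 by limma). Its sign turned with the scaling, to -0.43 with the 75th percentile and -0.29 with quantile normalization. Tead4, its DNA-binding partner in the trophectoderm, was at 13.21, 13.11 and 12.65 against 12.28, 12.00 and 12.05. Every morula array was lower, and the LFC of -0.88 ± 0.19 missed the minimum, while the 75th percentile gave -1.60 and quantile normalization -1.43, both DEGs. Tead2 rose by 2.38 ± 0.20. Upstream of them, Amot, which holds YAP1 at junctions, rose from 10.84, 11.30 and 11.07 to 12.89, 12.94 and 12.98, an LFC of 1.86 ± 0.13. The scaffold Wwc1 (2.27) and the kinase Stk3 (2.71) rose, and the kinase Lats2 had an LFC of 0.14 by one probe and of -0.87 by another, and of -0.59 and -0.61 for the first under the other scalings.

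Trophectoderm factors and markers included several of the largest rises. Of 22 members tested, 14 were DEGs with higher signals, 11 rose and 1 fell, with a median LFC of 1.54, or 1.24 with Gata2 at its bound. Cdx2, the homeobox factor of the lineage, was at 8.08, 9.37 and 8.47 in 8-cell embryos and at 13.35, 13.85 and 13.50 in morulae, an LFC of 4.93 ± 0.30 (adjusted p = 7.11e-07 by limma). Gata3 was at 8.72, 9.23 and 8.88 against 13.20, 13.64 and 13.29, an LFC of 4.44 ± 0.16. For Cdx2 the step before was also large, an LFC of 3.82 from 4-cell to 8-cell embryos, while for Gata3 that step was 1.03. Eomes rose by 4.00 ± 0.34 (2.58 with the normexp correction), with 2 of 3 8-cell signals well above background, and again by 4.23 on the way to the blastocyst. Tfap2a rose by 3.58, whereas its relative Tfap2c, already bright at 13.59, 13.60 and 13.85, had an LFC of 0.19, and of -0.51 and -0.34 under the other scalings. Gata2 was well above background on no 8-cell array and 2 morula arrays, at least 2.13-fold higher. Wnt7b (5.14, or 3.25 with the normexp correction), the lipid carrier Fabp3 (4.20) and Id2 (3.35) rose, and the prostaglandin synthase Ptges fell by 1.42.

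**Figure D4:**
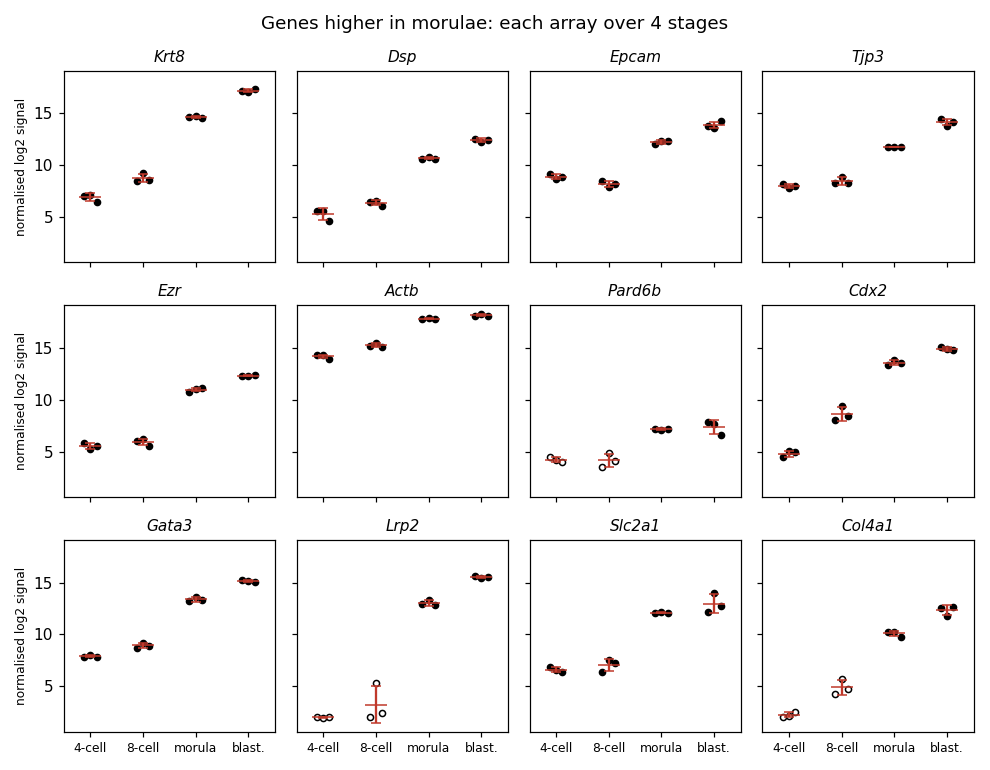
Normalized log2 signal (vertical axis) of 12 genes on each of the 12 arrays of the 4-cell, 8-cell, morula and blastocyst (blast.) stages (horizontal axis). Points are arrays, open where not all 3 arrays of the stage were well above background, and red bars give the mean and SD. In every panel the 3 morula arrays lie above the 3 8-cell arrays, as for Krt8 at 14.59, 14.73 and 14.55 against 8.46, 9.24 and 8.60.

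Genes of the inner lineages differed among themselves. Of 25 pluripotency and inner cell mass genes tested, 7 were DEGs with higher signals and 3 rose, shares close to the 28% and 12.5% of all genes, none were lower, and their median LFC of 0.70 was 0.24 above that of all genes. Sox2 was at 2.00, 2.69 and 2.98 in 8-cell embryos, not well above background on any array, and at 7.57, 8.32 and 7.91 in morulae, at least 12.5-fold higher (adjusted p = 1.67e-06 by limma). With the normexp background correction, whose offset draws low signals together, its LFC was 2.19. Tfcp2l1, a naive pluripotency factor, rose by 4.19 ± 0.34 and Stat3, which transmits LIF signals, by 2.35 ± 0.17. Pou5f1 was at 13.37, 13.70 and 13.38 against 13.92, 14.61 and 14.80, an LFC of 0.96 ± 0.32 that was 0.25 with the 75th percentile. Nanog, measured by 1 probe, had low signals at both stages, at 4.85, 4.99 and 3.64 against 5.77, 5.09 and 5.01. Its LFC was 0.79 ± 0.43 (adjusted p = 0.149 by limma), with 2 of 3 8-cell signals well above background.

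Of 18 primitive endoderm genes tested, 11 were DEGs with higher and 2 with lower signals, and 9 rose. Of those that rose, 6 encode basement membrane proteins, which other cells also make. Col4a1 went from 4.26, 5.70 and 4.79 to 10.27, 10.25 and 9.80, with 2 of 3 8-cell signals well above background and an LFC of 5.19 ± 0.36, and Col4a2 had an LFC of 5.11 ± 0.29. Both are chains of collagen IV and lie side by side in the genome. The laminin chain Lamc1 (3.28) and the receptor Pdgfra (2.76) rose. The transcription factor Gata6 was at 13.74, 13.84 and 13.55 against 14.07, 14.29 and 14.15, an LFC of 0.46 ± 0.21 that was not called and was -0.25 and -0.07 under the other scalings. Gata4, a relative of it, measured by 1 probe, was at 11.15 ± 0.17 (SD, n = 3 arrays) in 8-cell embryos, with 11.12 on the first and 11.33 on the third, and at 7.26, 7.22 and 7.01 in morulae. The stages were far apart, with an LFC of -3.98 ± 0.32 (adjusted p = 3.51e-06 by limma), and the signal was higher again in blastocysts by an LFC of 3.60. Sox17 was well above background on 1 morula array and no 8-cell array. Of 23 genes of the matrix and integrin list, 12 were DEGs with higher signals, 6 rose and none fell, among them Nid2 (2.66, or 1.73 with the normexp correction), Lama5 (2.64), Fn1 (2.46) and Itga7 (2.31).

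Cavitation needs sodium pumps and water channels. Of 19 such genes tested, 7 were DEGs with higher and 3 with lower signals, against 28% and 6.44% of all genes. By the stricter rule 4 rose, against 12.5%, and 3 fell, against 6.44%. The median LFC of 0.33 was 0.13 under that of all genes. Atp1b1, the β subunit of the sodium pump, went from 9.51, 9.32 and 9.14 to 11.30, 11.40 and 11.36, an LFC of 2.03 ± 0.18. The water channel Aqp3 was at 12.78, 12.98 and 12.76 against 15.34, 15.42 and 15.39, an LFC of 2.54 ± 0.13. A relative of it went the other way. Aqp11 was at 10.74, 10.36 and 11.06 against 8.24, 7.67 and 8.44, an LFC of -2.60 ± 0.24 by its 2 probes alike. The pump modulator Fxyd6 rose by 3.48, Fxyd5 was at least 1.97-fold higher but lost its call with the normexp correction (LFC 0.51), and Atp1b2 fell by 1.68 and the cotransporter Slc12a2 by 1.09.

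Among glucose transporters and glycolytic enzymes, most members were higher. Of 26 members tested, 16 were DEGs with higher and 3 with lower signals, 10 rose and 3 fell, with a median LFC of 1.43. Slc2a1 (GLUT1) was at 6.42, 7.56 and 7.23 in 8-cell embryos and at 12.08, 12.19 and 12.08 in morulae, an LFC of 5.05 ± 0.41. Slc2a3 (GLUT3) was at 11.10, 10.79 and 10.53 against 15.39, 15.29 and 15.22, an LFC of 4.49 ± 0.16 (adjusted p = 8.93e-08 by limma). Enzymes at several steps rose. Gapdh, another common reference gene, had an LFC of 4.67, with its 8 probes between 1.45 and 5.13, and it may share signal with pseudogenes. Tpi1 (3.97), Pkm (3.51) and Ldha (2.49) rose as well. The 3 that fell were Ldhb, Pdk1 and Mpc2. Ldhb, the subunit of lactate dehydrogenase that oocytes hold in abundance, fell by 2.03, the pyruvate dehydrogenase kinase Pdk1 by 1.28 and the mitochondrial pyruvate carrier Mpc2 by 1.15. Pdk1 was well above background on 1 of 3 morula arrays.

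Most sterol genes were DEGs with smooth quantile values, and fewer kept the call under the other scalings. Of 27 members tested, 17 were DEGs with higher signals, 6 rose and none fell, with a median LFC of 1.46. Srebf2, the main transcription factor of the pathway, was at 2.43, 2.94 and 2.73 in 8-cell embryos, not well above background, and at 7.72, 7.95 and 7.31 in morulae, at least 10.3-fold higher (adjusted p = 9.15e-07 by limma). Its LFC was 4.96 with all arrays and 1.96 with the normexp correction, and a second probe gave 2.76. It was 2.98 without morula replicate 1 and 2.72 without replicate 2. The brightest probe was chosen anew in each fit, so these values may be those of the second probe. Pmvk, a kinase of the mevalonate pathway, rose by 2.89 ± 0.16. The enzyme Nsdhl rose by 1.98, and Hmgcs1, at the entry of the pathway, had an LFC of 0.35, but -0.36 and -0.25 under the other scalings and 1.26 by a second probe.

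Among 28 genes of endocytosis and lysosomes tested, 15 were DEGs with higher and 3 with lower signals, 8 rose and 3 fell. Lrp2, megalin, an uptake receptor of the outer cells that also stood in the trophectoderm list, was at 2.04, 5.30 and 2.40 in 8-cell embryos, with 1 signal well above background, and at 12.97, 13.34 and 12.84 in morulae. This was the largest LFC of the named genes, 9.80 ± 0.67 (adjusted p = 1.37e-06 by limma), and a second probe gave 4.04. The 8-cell signals of 2.04 and 2.40 lay under the lowest well above background on those arrays, 4.45 and 4.14. The size of the rise is therefore uncertain, and over the alternative settings the LFC was as low as 6.74. The Lrp2 adaptor Dab2 rose by 4.32 ± 0.49 (2.73 with the normexp correction), and the partner receptor Cubn by 2.30. The lysosomal hydrolase Hexa (2.99) and the lipoprotein receptor Scarb1 (2.76) rose. The 3 that fell were all cathepsins, lysosomal proteases, with Ctsh at -1.99 ± 0.15, Ctsl at -1.45 ± 0.11 and Ctsb at -1.24 ± 0.16. Other cathepsins differed, as Ctsd was a DEG with higher signals (LFC 1.48), but with 0.76 and 0.96 under the other scalings, and Ctsc (-0.62) and Ctsz (-0.36) were not called with smooth quantile values.

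Maternal transcripts had the lowest median LFC of the 18 lists. Of 30 oocyte genes tested, 19 fell, against 6.44% of all genes, and 2 rose, with a median LFC of -1.60, or -1.50 with 4 members at their bounds. Gdf9, a growth factor of the oocyte, was at 11.17, 10.83 and 11.08 in 8-cell embryos and at 9.30, 9.21 and 9.55 in morulae, an LFC of -1.68 ± 0.13 (adjusted p = 2.96e-06 by limma). The zona pellucida gene Zp3 was at 10.90, 10.56 and 10.32 against 9.60, 9.40 and 9.60, an LFC of -1.06 ± 0.15. Btg4, which drives the clearing of maternal messages, was well above background on all 8-cell arrays and on no morula array, at least 9.15-fold lower, and Obox5 at least 8.32-fold lower. With the normexp correction their LFCs were -1.70 and -1.65. The nucleoplasmin Npm2 fell by 2.46. The 2 exceptions were Khdc3, a member of the subcortical maternal complex, at 13.37, 13.55 and 12.71 against 16.79, 16.69 and 16.58 (LFC 3.47 ± 0.20), and the germ cell factor Sohlh1 (LFC 2.25). Of 15 genes of the 2-cell stage tested, 8 fell and none rose under all 3 scalings. Obox3 was at 9.76, 9.32 and 9.42 against 6.27, 5.87 and 6.39, an LFC of -3.32 ± 0.26, and Tdpoz4 (-2.77), Usp17lc (-2.49), Tdpoz3 (-2.49, or -1.13 with the normexp correction) and Zscan4c (-2.04) fell too. Of the 3 morula arrays, Zscan4c was well above background on 1 and Tdpoz3 on 2. Obox, Tdpoz, Usp17l and Zscan4 genes have near-identical copies, so their signals may be shared among relatives.

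**Figure D5:**
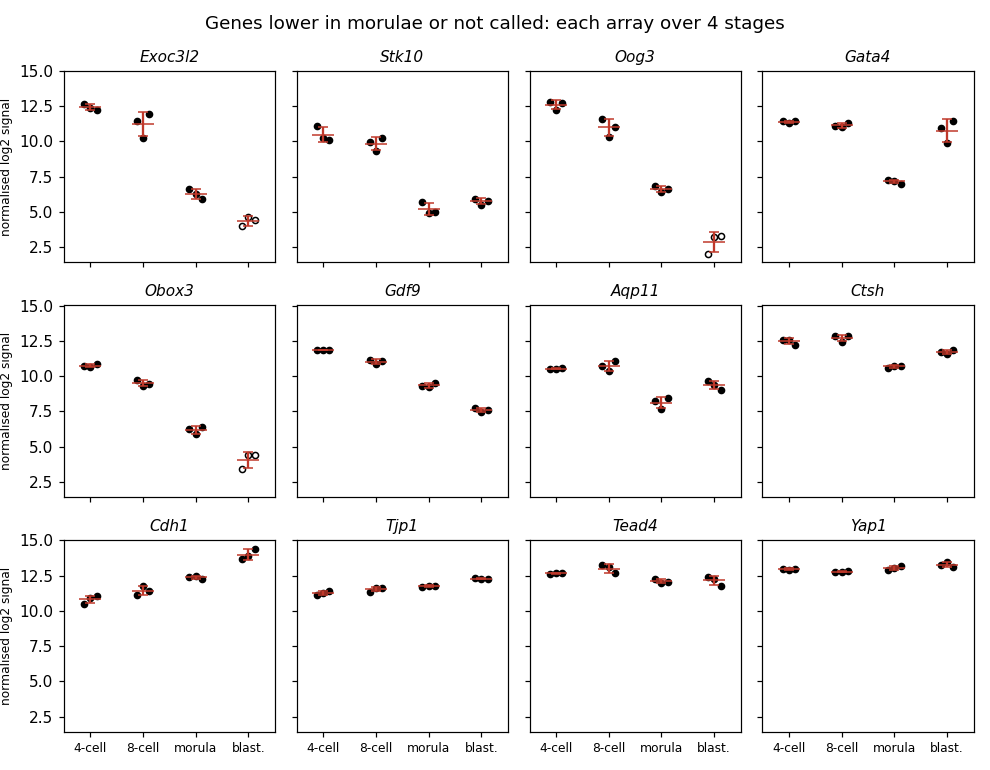
Normalized log2 signal (vertical axis) of 8 genes that fell (upper and middle rows) and of Cdh1, Tjp1, Tead4 and Yap1 (bottom row), which were no DEGs with smooth quantile values, on each of the 12 arrays of 4 stages (horizontal axis). Points are arrays, open where not all 3 arrays of the stage were well above background, and red bars give the mean and SD. Gata4 drops to 7.26, 7.22 and 7.01 in morulae and is higher again in blastocysts, whereas Oog3 and Obox3 are lower again.

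Beyond the lists, the largest rises among genes well above background on all 6 arrays were led by Elf3, an ETS factor of epithelia. It was at 5.12, 5.45 and 5.49 in 8-cell embryos and at 12.57, 12.50 and 12.57 in morulae, an LFC of 7.20 ± 0.22 (adjusted p = 6.47e-08 by limma). Krt8 came second and was followed by Gsn, the actin-severing protein gelsolin (5.74), the aldo-keto reductase Akr1b8 (5.67), the co-activators Cited4 (5.47) and Fhl2 (5.42), and Xbp1 (5.39), a factor of the secretory pathway. Ceacam10 (5.38), Niban2 (5.18), the fatty acid desaturase Scd2 (5.15), the elongase Elovl7 (5.14) and Col4a2 completed the 12.

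The largest fall was that of Exoc3l2, a relative of an exocyst subunit, from 11.46, 10.26 and 11.97 to 6.64, 6.25 and 5.90, an LFC of -4.97 ± 0.39 (adjusted p = 2.8e-06 by limma). Its second probe gave -3.19. The LFC was -3.18 without 8-cell replicate 1 and -2.99 without replicate 3, but the brightest probe was chosen anew in each fit. These values may thus be those of the second probe. The kinase Stk10 went from 9.96, 9.33 and 10.22 to 5.70, 4.93 and 5.03, an LFC of -4.62 ± 0.32. Oog3, an oocyte gene, followed at -4.34 ± 0.38. The other 9 were Omt2b (-4.14), Gm7104 (-4.12), Ppp1r16b (-4.09, or -2.71 with the normexp correction), Pramel51 (-4.07), Lrrc18 (-4.01), Gata4, Trim61 (-3.95), Omt2a (-3.89) and Dynap (-3.82). Oog3, Pramel51, Omt2a and Omt2b have close relatives in the genome. In the next step, towards the blastocyst, Oog3 had an LFC of -3.78 and Stk10 of 0.53.

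Some genes crossed the detection limit. Of 22328 genes with a probe, 407 (1.82%) were well above background on all 3 morula arrays and on no 8-cell array, and 212 (0.949%) the reverse. Of the 407, 363 were well above background on all 3 blastocyst arrays, and of the 212, 192 were on all 3 4-cell arrays. Among all signals of an array, 50.8 to 53.8% were well above background on the blastocyst arrays and 44.9 to 47.0% on the 4-cell arrays. The largest bounds were those of the ATP-gated channel P2rx7, at least 85.1-fold higher in morulae, of Dppa1, at least 74.2-fold, and of the natriuretic peptide Nppb, at least 73.7-fold. P2rx7 was at 1.92, 4.01 and 4.07 in 8-cell embryos against 10.21, 10.84 and 11.07. Mymx, known from muscle cell fusion and outside the filter of the test, was at least 54.7-fold higher, the heat shock protein Hspb8 at least 52.0-fold and the matrix protein Tinagl1 at least 41.5-fold. In the other direction, Atp6v1c2, a subunit of the proton pump, was at least 17.3-fold lower, and the T-box factor Tbx21 and BC051665 at least 10.4-fold.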

How the data were processed

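RNA of 100 embryos per sample was hybridized to 1-colour Agilent mouse arrays. The deposited intensity values came from Agilent's Feature Extraction program, which had subtracted the background and corrected spatial trends on each slide, and the authors had not yet scaled them between arrays. The program is given as 9.5.1.1 in the submitters' processing notes and as 10.7.1.1 in the file headers. The authors also deposited log2 values after smooth quantile normalization, which served here as an alternative. Of 55681 probes, 27235 were named by accession, 3581 by symbol and 565 by synonym, by RefSeq annotation, while 24300 had no current gene name and stayed out.

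The filter asked for a positive and significant signal in both stages, in 1 or more of the 3 arrays of either (23975 probes), and the brightest probe stood for its gene. log2 signals were normalized by a smooth quantile routine written for this work, with a window of 5%, and fitted over 12 arrays of 4 stages with limma 3.58.1 in R 4.3.3 (median total degrees of freedom 9.99). The R package data.table (version 1.17.8), statmod 1.5.0, Python 3.11.15 and matplotlib 3.10.9 were also used. Genes not well above background in a stage by any probe were given as bounds: the mean of the bright stage over the dim stage's mean, in which each array entered with the lowest signal well above background or, if higher, its own. Upstream sequences came from RefSeq (GRCm38.p6), 1 per gene.

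The members and lists were chosen with earlier results of these data known. Named genes were a fixed set of 35, up to 4 called members of each list by size of LFC, the 12 largest rises and falls among genes well above background on all 6 arrays without overlap, and genes with the largest bounds. Other members are named for the role they play in a list, chosen after their values were seen. The replicates were described by the study as independent samples. The replicate number is the slide number, and deviations of same-numbered 8-cell and morula arrays correlated at 0.17, 0.05 and 0.07. In simulated data with 17558 genes, 100 genes changed by an LFC of 2 in size were recovered at 73% to 75% and 100 changed by 3 at 90% to 93%, over the 3 scalings and with noise taken before or after normalization (1 draw each), with 3 to 8 unchanged genes called. All simulated arrays were drawn around the 8-cell means apart from the changed genes. The simulation therefore could not show the shift between scalings that the real stages have. Some genes that the rule names are not reported here. The number of arrays, 3 per stage, limits the precision. The treated arrays and other stages were not used here, apart from an alternative fit over 24 untreated arrays.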

Additional observations from a re-analysis of the deposited data

How the results depend on the processing

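The scaling between arrays decided the balance of the directions. With the 75th percentile, 2235 genes were higher and 2850 lower, with quantile normalization 2480 and 2344, and with each array centred on its median after smooth quantile normalization, which was added after seeing the data, 2267 and 2864. Normexp background correction gave 4008 DEGs among 17558 genes tested, 540 of them lower. The authors' log2 table, which holds fewer probes, gave 3991 among 10828 genes tested, 490 of them lower. With only genes well above background on all 6 arrays, there were 4482 DEGs among 11883 genes tested, 668 of them lower. With no minimum LFC there were 9791, of which 7865 were higher and 1926 lower. Leaving out 1 array at a time gave 5498 to 6605 DEGs, 4249 to 5635 higher and 934 to 1249 lower. The authors' table and the filter for all 6 arrays tested fewer genes, so their counts are not losses of DEGs alone. The cause of the other shifts was not tested. With the replicate number as a block there were 6062 DEGs, and the call of none of the 109 named genes changed. The numbers share a slide, and every 8-cell and morula array correlated best with the array of its own number, but 2 of 3 pairs lay under the limit of 0.1. The detection filters, the mean of probes, 6 or 24 arrays, the slide as a random block, array weights and missing values left the total within 1.5 times. Normexp correction moved the LFC of 16 named genes by over 1.5 times. No called named gene changed sign under any setting, while the uncalled Tjp1, Yap1, Gata6, Tfap2c, Hmgcs1 and Lats2 changed sign between settings. Cldn4, Gja1, Pard3 and Utf1 lost their call under the 75th percentile and quantile scalings, and Tead4 gained one. Cdh1, Ctnnb1 and Pou5f1 passed the minimum with 24 arrays (LFC 1.01, 1.06 and 1.04). Of 21 alternative settings, they gained a call in 5, 4 and 6, with LFCs of up to 1.14, 1.26 and 1.37. Without morula replicate 1, Zp3 lost its call (-0.95).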
